A study of Saccharomyces cerevisiae with 6 samples.

Results

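The HSP30 family of Saccharomyces cerevisiae (HSP30, YRO2 and MRH1) and the plasma membrane proton pump genes (PMA1 and PMA2) were examined in yeast cells exposed to arsenite. These 5 genes, of 5539 named on the arrays, are carried by 10 of the 11138 named spots, 2 spots for each gene. They were selected by gene symbol at a time when mean log ratios of this same comparison were already known, so their values are given as a description and without a test. A met4 mutant, a deletion by the series title, was hybridised against the wild type on 6 two-colour arrays, and both strains had been treated with 0.2 mM As(III) for 1 hour. The mutant was in the Cy3 channel and the wild type in the Cy5 channel on every array. Met4 is the transcriptional activator of the sulfate assimilation genes, and the comparison addresses which transcripts depend on it in arsenite-exposed cells. Cells without arsenite were not analysed here, so a strain difference that precedes the exposure cannot be told apart from one that appears during it.

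Pma1 is the essential P-type ATPase of the yeast plasma membrane. It spends ATP to export protons, and the gradient it builds drives nutrient uptake and sets cytosolic pH. Pma2 is a minor isoform with the same activity. Hsp30 is a stress-induced plasma membrane protein that is known to restrain Pma1 activity, which spares ATP in heat, ethanol or weak acid stress. Mrh1 and Yro2 are related multispanning membrane proteins and a duplicate pair, and YRO2 is a known target of the weak acid regulator Haa1.

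Values are given as log2 ratios from which the median of all spots on the same array was subtracted, so that 0 is the typical spot. The array medians as deposited ran from -0.95 to 0.92. The ratio is read as mutant over wild type. This direction is likely, not stated: it rests on the order of the titles and on MET4 itself, which lay below the array median on 6 of 6 arrays with a mean of -0.59 ± 0.25 (SD, n = 6; limma, adjusted p = 0.0112, and 0.600 without centring, where its mean was not past the threshold). The sources used here give neither the deleted part of MET4 nor the probe sequences. The log base is not stated either and was taken as 2. The dyes were not swapped on any array, so a dye bias of a single gene and a strain difference cannot be told apart. Whether the replicates were separate cultures is not stated, and p-values therefore cover only variation among the 6 arrays, some of which may be technical. Array 2 resembled the others least, with a mean correlation across genes of 0.291 against 0.368 to 0.506 for the others, and values without it are given below. A two-colour ratio gives no absolute level, so transcript abundance cannot be compared between genes.

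HSP30 (YCR021C) was the member with the largest ratio, at 2.40 ± 0.24 (SD, n = 6), which corresponds to 5.27-fold more transcript in the mutant if the base is 2 and the direction holds. On arrays 1 to 6 its log2 ratio was 2.29, 2.57, 2.04, 2.72, 2.50 and 2.26. It was high on every array, and its values on single arrays correspond to between 4.12-fold and 6.57-fold. Its mean ranked 4th from the highest of all 5539 genes, and on single arrays it ranked between 2nd and 53rd, places that would count from the lowest if the ratio were wild type over mutant. Without array 2 the mean was 2.36.

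YRO2 (YBR054W) followed, at 1.24 ± 0.23 (SD, n = 6), or 2.36-fold. Its log2 ratio was 0.88, 1.04, 1.37, 1.44, 1.24 and 1.44 on arrays 1 to 6. Arrays 1 and 2 were the lowest, and none was near 0. Its mean ranked 51st of all genes and it lay at or above the 96.6th percentile on every array. Without array 2 the mean was 1.27.

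MRH1 (YDR033W), the duplicate of YRO2, stood at 0.44 ± 0.37 (SD, n = 6). Its log2 ratio was 0.97, 0.32, 0.49, 0.63, -0.14 and 0.34 on arrays 1 to 6. It was above 0 on 5 arrays, highest on array 1 and just below 0 on array 5. The mean was 0.46 without array 2 and 0.57 when each of 48 runs of consecutive spots was centred separately. Its percentile among all genes ran from 34.8 on array 5 to 98.5 on array 1.

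PMA2 (YPL036W), the minor pump isoform, stood at 0.36 ± 0.36 (SD, n = 6). Its log2 ratio was 0.68, 0.95, 0.082, 0.092, 0.22 and 0.15 on arrays 1 to 6. Arrays 1 and 2 were high, and the other 4 lay close to 0 but above it. The size of the mean depended on the setting: it was 0.25 without array 2 and 0.060 with runs of spots centred separately. On array 4 its spots read -0.11 and 0.29, so the value there averages readings that differ in sign.

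PMA1 (YGL008C), the main pump, stood at 0.24 ± 0.50 (SD, n = 6), a spread larger than its mean. Its log2 ratio was 0.70, -0.047, 0.0066, 0.11, -0.32 and 0.98 on arrays 1 to 6. Arrays 1 and 6 were high, near the 95.1st percentile of all genes or above it, while the other 4 lay near or below 0. The arrays therefore did not give one direction for PMA1. Its mean was 0.15 without array 1, 0.30 without array 2, 0.091 without array 6, 0.10 from the first spot alone and 0.019 with runs of spots centred separately. PMA1 and PMA2 are close paralogs, and without probe sequences a signal shared between their spots was not tested.

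**Figure D1:**
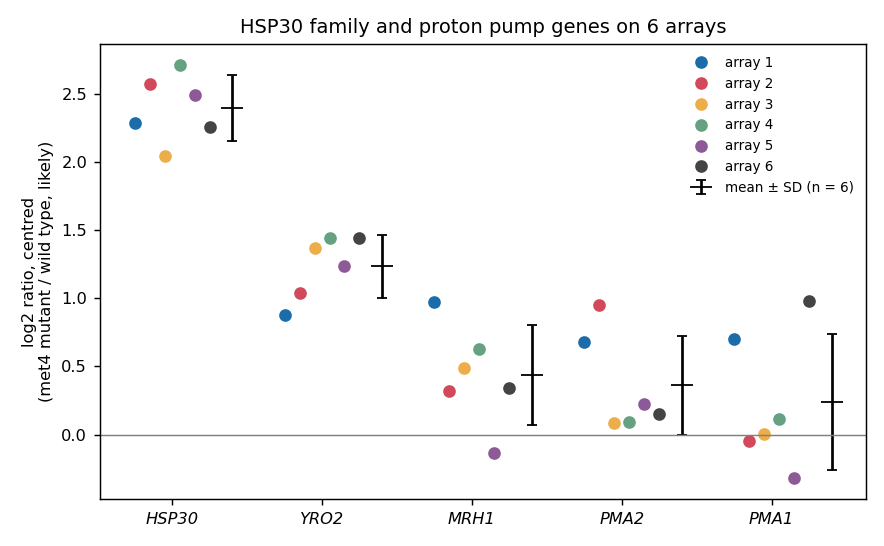
Centred log2 ratio (vertical axis; met4 mutant over wild type, likely) of the 5 genes, with 1 coloured point for each of 6 arrays and a black bar for mean ± SD. The 6 HSP30 points lie between 2.04 and 2.72 and the YRO2 points between 0.88 and 1.44, whereas MRH1, PMA2 and PMA1 overlap one another.

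Of the 5 genes, HSP30, YRO2 and PMA2 lay above 0 on all 6 arrays, PMA2 on array 4 only as the mean of 1 spot below 0 and 1 above. Over all genes tested 9.89% did so, and the count among the members describes genes chosen with these values known. With the values as deposited, before centring, HSP30 and YRO2 still lay above 0 on 6 arrays, MRH1 and PMA1 on 5, and PMA2 on 4.

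The order of the ratios was stable at the top and not below. HSP30 exceeded YRO2 on 6 of 6 arrays, by 1.16 ± 0.34 (SD, n = 6) on the log2 scale. Every HSP30 value was above every YRO2 value. HSP30 exceeded MRH1 on 6 of 6 arrays as well, by 1.96 ± 0.48. YRO2 exceeded MRH1 on 5 of 6 arrays by 0.80 ± 0.50 on average, with array 1 the exception at -0.091, so the duplicate pair differed there by almost nothing.

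MRH1, PMA2 and PMA1 had no consistent order. MRH1 minus PMA2 was 0.073 ± 0.46 (SD, n = 6), positive on 4 arrays, and MRH1 minus PMA1 was 0.20 ± 0.43, positive on 5. PMA2 minus PMA1 was 0.12 ± 0.62, with each gene the higher on 3 arrays. The extremes were array 2, where PMA2 was higher by 1.00, and array 6, where the difference was -0.83. On these values the 3 means do not differ beyond the spread between arrays. Without array 2 the pump difference was -0.051, and without array 4 the MRH1 to PMA2 difference was -0.020. With runs of spots centred separately MRH1 stood 0.52 above PMA2 and 0.56 above PMA1, so the place of MRH1 relative to the pump genes depended on the centring.

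The 2 spots of each gene gave a check within each array. Over the 5510 genes with 2 spots the median absolute difference between them was 0.085 on the log2 scale, and 95% of differences were at most 0.38. The medians over arrays were larger for every member: 0.18 for HSP30, 0.17 for PMA2, 0.14 for PMA1, 0.13 for MRH1 and 0.11 for YRO2. HSP30 spots differed by at most 0.31 (array 6), YRO2 spots by at most 0.31 (array 1), MRH1 spots by at most 0.26 and PMA2 spots by at most 0.40 (array 4, at -0.11 and 0.29). The largest difference was that of PMA1 on array 4, where its spots read -0.44 and 0.67, a difference of 1.11. On that array the values of both pump genes, 0.11 for PMA1 and 0.092 for PMA2, are means of readings that disagree in sign. On the other 5 arrays the PMA1 spots differed by at most 0.25, so the spread of PMA1 between arrays was also present where its spots read alike.

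**Figure D2:**
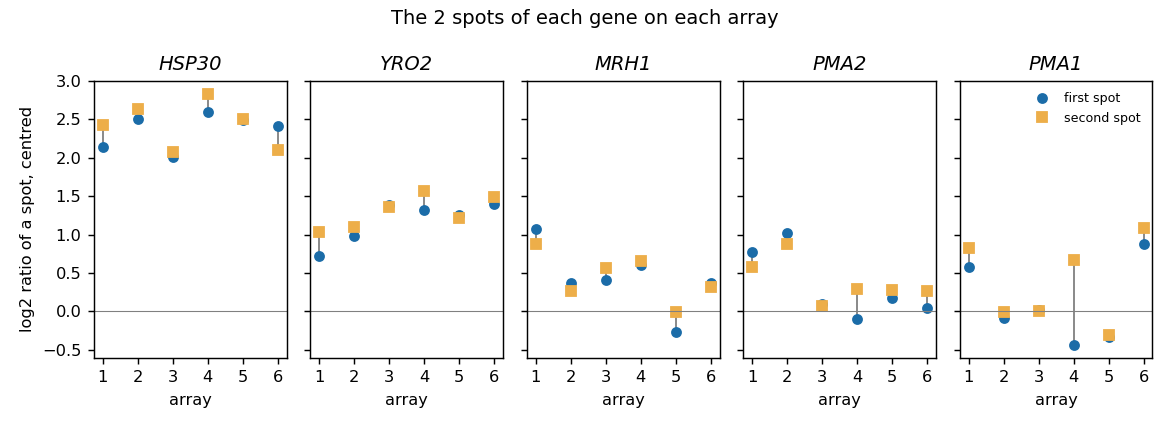
Centred log2 ratio of the first spot (circles) and second spot (squares) of each gene on arrays 1 to 6, joined by a grey line. The widest pair is PMA1 on array 4, at -0.44 and 0.67, and the PMA2 pair on that array also lies on both sides of 0, at -0.11 and 0.29.

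After centring, HSP30 and YRO2 had small spreads for genes of their size. Among the 104 genes with a mean of at least 1, the SD between arrays had a median of 0.57, while YRO2 had the 4th smallest and HSP30 the 6th smallest. Of the 7 genes with a mean of at least 2, HSP30 had the smallest SD, and the largest was 1.81. The lowest HSP30 value on any array, 2.04, was the highest such minimum of all 5539 genes, followed by 1.73 for ALD3, a stress-induced aldehyde dehydrogenase gene. In the values as deposited the HSP30 minimum was 1.31 and ranked 6th behind ALD3 at 1.92, and it ranked 2nd with arrays of equal median absolute deviation and 3rd with quantile normalization. By its own lowest value YRO2 was 16th after centring and 45th in the values as deposited. It was 8th with arrays of equal median absolute deviation and 9th with quantile normalization. Among genes with a mean of at least 1, the small spread of HSP30 depended on the scaling of the arrays. With arrays of equal median absolute deviation its SD was 0.53, 47th from the smallest of 107 genes (median 0.59). With quantile normalization its SD was 0.66, 71st of 99 genes (median 0.56), and above that median. In the values as deposited its SD was 0.63, 33rd of 152 genes, and still below their median of 0.83. The SD of YRO2 was 0.15 and 0.14 under the first 2 of these settings, the smallest and 2nd smallest, and 0.59 as deposited. The SDs of MRH1 and PMA2 lay at the 54.6th and 53.1st percentiles of all genes and that of PMA1 at the 78.7th.

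**Figure D3:**
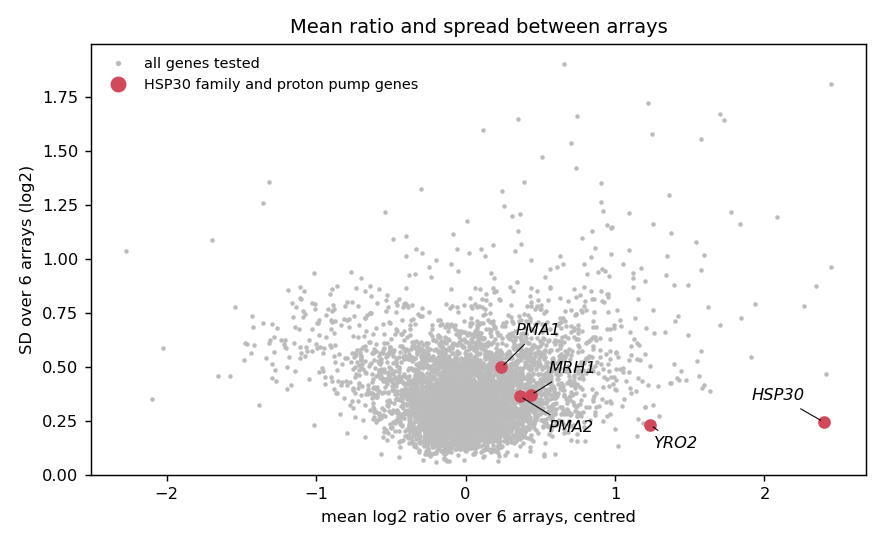
Mean centred log2 ratio over 6 arrays (horizontal axis) against the SD over the same arrays (vertical axis, log2) for all 5539 genes (grey), with the 5 genes in red. HSP30 lies at 2.40 with an SD of 0.24 and YRO2 at 1.24 with 0.23, both below most genes of similar mean.

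The genes nearest to each member were found by the root mean square difference of the 6 array values, over 5538 other genes. No gene mean was removed first, so this measure counts a gap in mean ratio as well as the pattern over arrays. For HSP30 and YRO2 it was 1.20, beside a difference in means of 1.16. ALD3 was nearest to HSP30, at a difference of 0.43, with a mean of 2.41 ± 0.47 (SD, n = 6). ITR1, an inositol transporter gene, came next at 0.62, and ARG4, an arginine synthesis gene, at 0.69. YRO2 was 26th in likeness to HSP30, and MRH1, PMA2 and PMA1 were 636th, 800th and 1460th. All genes on an array share its RNA samples and labelling, and such likeness is a description only.

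The 3 genes nearest to YRO2 were YMR181C at 0.18, YOL153C at 0.21 and PIR3, a cell wall protein gene, at 0.23. The genes nearest to MRH1 were MCH4 at 0.16, CSC1 at 0.17 and CTH1 at 0.18. PMA1 was most like MEX67, an mRNA export factor gene, at 0.20. YDR341C and YMC2 followed at 0.21 each. PMA2 was most like NRD1, a transcription termination factor gene, at 0.15, and NHA1 and PGA1 followed at 0.16 and 0.17. NHA1 encodes the plasma membrane antiporter that expels sodium and potassium in exchange for protons, and its own mean was 0.36 ± 0.37 (SD, n = 6; limma, adjusted p = 0.124).

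Genes that surround the pump and the HSP30 family in the cell were followed in 5 lists with 66 genes, all measured. The lists were written from general knowledge of yeast, with earlier results of these data known. A list share above that of all genes is therefore given as a description. Each gene's mean was tested against 0 with limma over all 5539 genes, and a gene is called past an adjusted p of 0.05. Over all genes 9.41% were called higher in the mutant and 5.69% lower, 521 and 315 genes, with a median of 0.0053. Without centring, calls were 187 above 0 and 59 below, so the split between directions depended on the centring. Of the 66 genes 15 were called higher, 1 lower and 50 were not called.

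Among genes that build, deliver or control Pma1, calls were about as frequent as among all genes. Of 11 measured, 1 was called higher, 9.09% against 9.41% of all genes, and 0 lower (limma; at an unadjusted p under 0.05 the counts were 2 and 1), and the list median was -0.13. The call was PTK2, which encodes the protein kinase that activates Pma1, at 0.54 ± 0.38 (SD, n = 6; limma, adjusted p = 0.0314). It lay between -0.050 on array 2 and 1.07 on array 4, with a median of 0.52. The call was lost without array 1, 3, 4, 5 or 6 (adjusted p between 0.0644 and 0.0970) and in the values as deposited (0.303), and kept without array 2 (0.00948). PMP1 and PMP2 encode small proteolipids that associate with the pump. They were singled out after their values were seen and stood at 0.096 ± 0.66 (adjusted p = 0.801) and -0.16 ± 0.28 (adjusted p = 0.481).

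Potassium and sodium transport genes, whose products work against or along the gradient that the pump maintains, had a median of 0.035. Of 15 measured, 0 were called higher and 1 lower (limma; at an unadjusted p under 0.05 the counts were 1 and 1). The share called lower, 6.67%, was near the 5.69% of all genes. The call was QDR2, which encodes a plasma membrane multidrug transporter with a role in potassium uptake. Its log2 ratio fell by 0.87 ± 0.38 (SD, n = 6; limma, adjusted p = 0.00295) and was below 0 on 6 of 6 arrays, from -1.36 on array 5 to -0.25 on array 6. It kept its call without each array in turn and lost it in the values as deposited (adjusted p = 0.178). TRK1, the main potassium importer gene, singled out after its value was seen, stood at 0.16 ± 0.25 (adjusted p = 0.447). ENA1, ENA2 and ENA5 are near-identical sodium pump genes whose signals may be shared, and none of them was called.

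Other P-type ATPases, which share the catalytic cycle of Pma1 but move calcium, copper, cadmium or lipids, had a median of 0.056. Of 11 measured, 1 was called higher and 0 lower (limma; at an unadjusted p under 0.05 the counts were 1 and 0), again 9.09% higher against 9.41% of all genes. PCA1, the cadmium exporter gene, stood at 0.64 ± 0.40 (SD, n = 6; limma, adjusted p = 0.0155), between -0.026 on array 2 and 1.21 on array 4. Its call was lost without array 6 (adjusted p = 0.0511), in the values as deposited (0.171) and with runs of spots centred separately (0.0562).

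The weak acid response list, which holds the regulator genes WAR1 and HAA1 and other genes linked to that response, without YRO2, had a median of 0.42. Of 11 measured, 5 were called higher and 0 lower (limma; at an unadjusted p under 0.05 the counts were 6 and 0), 45.5% of the list against 9.41% of all genes. YGP1, a cell wall related secretory glycoprotein gene, rose by 1.58 ± 0.95 (SD, n = 6; limma, adjusted p = 0.00282), with values from 0.46 on array 2 to 2.82 on array 3 and a median of 1.42. SPI1, a cell wall protein gene, rose by 1.26 ± 0.65 (adjusted p = 0.00207), from 0.41 on array 2 to 2.10 on array 6. Both spread more widely between arrays than YRO2, whose range was 0.56.

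The polyamine and acetate exporter gene TPO2 (0.66 ± 0.55; limma, adjusted p = 0.0311), the phosphatase gene PHM8 (0.59 ± 0.30; adjusted p = 0.0135) and GPG1 (0.55 ± 0.45; adjusted p = 0.0396), the last named after its value was seen, rose less. The count of 5 fell to 3 without array 1 or 3 and to 2 without array 6, and was 5 without array 2. The calls over all genes moved as well. From 521 higher they went to 387 without array 1, 291 without array 3, 293 without array 6 and 663 without array 2. In the values as deposited they were 187. YGP1 and SPI1 kept their calls without each array in turn and were the 2 called in the values as deposited. TPO2 lost its call without array 1, 3, 5 or 6, PHM8 without array 6 and GPG1 without array 1, 3, 4 or 6. With runs of spots centred separately TPO2 stood at 0.35 (adjusted p = 0.277), and GPG1 missed the threshold with arrays of equal median absolute deviation (adjusted p = 0.0525). The regulator genes and the best known War1 target were singled out after their values were seen. WAR1 stood at 0.42 ± 0.29 (adjusted p = 0.0567; it passed with quantile normalization, 0.0430, and with runs of spots centred separately, 0.0153), HAA1 at 0.14 ± 0.22 (adjusted p = 0.498) and PDR12, the weak acid exporter gene, at -0.31 ± 0.52 (adjusted p = 0.265).

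Genes of the eisosome and the Can1 compartment, a plasma membrane domain distinct from the one that Pma1 occupies, had a median of 0.42. Of 18 measured, 8 were called higher and 0 lower (limma; at an unadjusted p under 0.05 the counts were 10 and 0), 44.4% of the list against 9.41% of all genes. PUN1, a stress-induced membrane protein gene, rose by 1.58 ± 0.40 (SD, n = 6; limma, adjusted p = 0.000149), between 1.16 on array 2 and 2.11 on array 4, with a median of 1.56. NCE102, which encodes a tetraspan protein that organises the domain, rose by 1.23 ± 0.50 (adjusted p = 0.000881), from 0.66 on array 2 to 1.94 on array 4.

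LSP1, an eisosome core component gene, rose by 0.83 ± 0.51 (SD, n = 6; limma, adjusted p = 0.00816) and FMP45, a relative of SUR7, by 0.78 ± 0.45 (adjusted p = 0.00854). PIL1, the other core component gene, rose by 0.74 ± 0.27 (adjusted p = 0.00370), and by 0.44 with runs of spots centred separately (adjusted p = 0.0359). SUR7 stood at -0.013 ± 0.23 (adjusted p = 0.961) and the arginine permease gene CAN1, for which the domain is named, at -0.16 ± 0.31 (adjusted p = 0.496). These last 3 genes were singled out after their values were seen. The count was between 7 and 9 without each array in turn, and 7 without array 2. Over all genes the calls higher then ran from 291 to 663. In the values as deposited the list count was 3, PUN1, NCE102 and LSP1, beside 187 over all genes. FMP45 and PIL1 then missed the threshold (limma, adjusted p = 0.0727 and 0.0904).

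**Figure D4:**
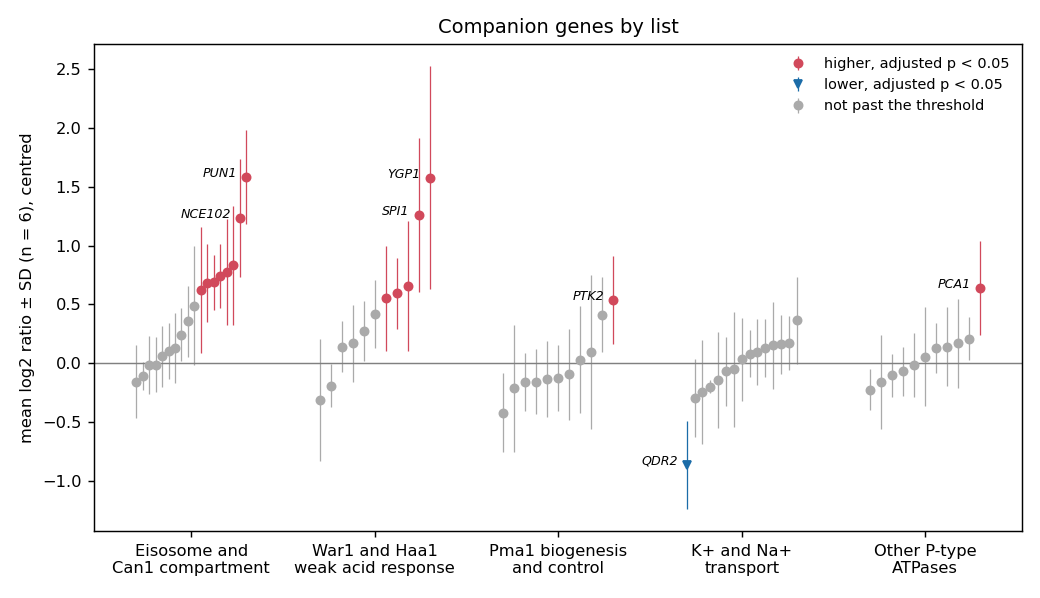
Mean centred log2 ratio ± SD over 6 arrays (vertical axis) of the 66 companion genes, grouped by list and sorted by mean within each. The lists were written with earlier results of these data known. Red circles mark genes called higher, the blue triangle the 1 gene called lower (QDR2) and grey circles genes not past the threshold; 8 of 18 eisosome and Can1 compartment genes and 5 of 11 weak acid genes are red, against 1 of 11 pump partners.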

How the data were processed

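Total RNA of 2 strains was compared on 6 two-colour arrays, per the labels. The deposited values are log ratios of both channels for 13056 spots, taken as log2 because on a base of 10 the top value would stand for a 211208-fold ratio. A natural logarithm would multiply each value by 1.44. The sources used here do not name background correction, scanner or software, and no intensities were used, so spots near background are unmarked and the number of arrays limits precision. The table held 0 further sample columns.

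Exact zeros (134) were set to missing, each array was centred on its median, and the spots of a gene were averaged. Platform annotation named 11138 spots with 1 gene each, with symbols updated through gene identifiers, and left 1918 unnamed. A value was required on 4 arrays, and all 5539 genes had it. Genes were tested with limma 3.58.1 in R 4.3.3 (intercept, eBayes, Benjamini-Hochberg over all genes). The code was run on simulated data with known answers and independent normal errors for each gene and array. That check does not cover errors shared between genes or between arrays. Figures used matplotlib 3.10.9.

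Members and lists were chosen with earlier results of these data known. Named genes are the members, MET4 and up to 4 called genes per list by size (or the 1 with the smallest adjusted p). The 3 genes nearest to each member by root mean square difference are also named, and others are named as seen. No sequences were used here, so the planned protein and promoter description was not made. Alternatives were no centring, centring in 48 runs of consecutive spots, equal scale, quantile normalization, zeros kept, first spot only, robust eBayes, array weights, natural logarithms and leaving out each array.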

Additional observations from a re-analysis of the deposited data

How the results depend on the processing

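Every mean of HSP30, YRO2, MRH1, PMA2 and PMA1 stayed above 0 under 13 alternatives. Ranges without each array in turn were 2.33 to 2.47 for HSP30, 1.19 to 1.31 for YRO2, 0.33 to 0.55 for MRH1, 0.25 to 0.42 for PMA2 and 0.091 to 0.35 for PMA1. Centring in 48 runs left HSP30 at 2.35 and YRO2 at 1.19 but took PMA1 to 0.019 and PMA2 to 0.060, a shift within the SD of each. Read as natural logarithms, HSP30 would be 3.46 and YRO2 1.78, with differences of 1.67 between them and 2.83 between HSP30 and MRH1. PMA2 minus PMA1 ran from -0.051 to 0.31 and MRH1 minus PMA2 from -0.020 to 0.21 without each array, and with 48 runs MRH1 was 0.57, 0.52 above PMA2 and 0.56 above PMA1.

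Without centring 187 genes were called higher and 59 lower, against 521 and 315. The lists then held 2 higher weak acid genes, 3 higher eisosome genes, 0 higher pump partners, 0 higher P-type ATPases and 0 lower transport genes. Centring in 48 runs gave 2 higher pump partners, 2 higher transport genes and 0 higher P-type ATPases, and array weights gave 2 and 1 for the first 2 of these. Without each array in turn the calls ran from 291 to 663 higher and from 165 to 302 lower, with 0 to 2 pump partners, 2 to 5 weak acid genes and 0 to 1 P-type ATPases higher. The causes were not tested. The 11 companion genes named by rule kept their direction in all 165 values and their call in 146, and YGP1, SPI1, PUN1, NCE102 and LSP1 kept theirs throughout. Each array pairs the mutant with the wild type, and the test of the ratio against 0 used that pairing. The arrays form 1 group, so no further pairing between groups of arrays could be made. Without intensities, signal over background limits the reading of every value in an unknown way.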

Other observations

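The chromosomal neighbours of the 5 genes were looked up after the values were seen, 2 protein-coding genes on each side in the R64 gene order. Of 20 such genes 15 were named on the arrays, and 3 of these (20%, against 9.41% of all genes) were called higher and 0 lower (5.69% of all genes; limma, with 1 lower at an unadjusted p under 0.05). YBR053C lies next to YRO2 and, by the strand letters of the locus tags, is transcribed away from it, so that both genes flank 1 intergenic region. Its log2 ratio was 1.01, 0.52, 1.68, 1.38, 1.53 and 1.23 on arrays 1 to 6, with a mean of 1.22 ± 0.42 (SD, n = 6; limma, adjusted p = 0.000493), beside 1.24 ± 0.23 for YRO2. Both genes were above 0 on 6 of 6 arrays. The call of YBR053C held under all 15 alternatives, with adjusted p between 7.87e-05 and 0.00407.

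LYS14, a lysine synthesis activator gene downstream of MRH1 on the opposite strand, stood at 0.60 ± 0.094 (SD, n = 6; limma, adjusted p = 0.00557), with values between 0.47 and 0.71 on the 6 arrays. Its spread was far below the 0.37 of MRH1, and its call was lost only in the values as deposited (adjusted p = 0.220). YPL034W, the neighbour of PMA2, stood at 0.62 ± 0.55 (limma, adjusted p = 0.0384), led by 1.64 on array 2, the array on which PMA2 was also highest. Its call was lost without array 2 (adjusted p = 0.0603) and without array 1, 3, 5 or 6, without centring and with centring in 48 runs. For PMA1 and HSP30, 4 measured neighbours had means between -0.14 and 0.24 and none was called.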
